A study of Mus musculus with 8 samples.

Results

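The set described here holds 10 genes that build triglyceride in the liver: Gpam, Agpat1, Agpat2, Agpat3, Lpin1, Lpin2, Lpin3, Dgat1, Dgat2 and Mogat1. They were picked by gene symbol from the 25010 genes of an RNA-Seq table of mouse liver, and all 10 were present. The livers came from 2 WT mice and 2 LXRDKO mice on the C57BL/6 background, and each mouse gave 1 library from its left lobe. In LXRDKO mice both receptor genes, Nr1h3 for LXRα and Nr1h2 for LXRβ, are deleted in every tissue, so cells other than hepatocytes lack the receptors too. All mice ate standard chow, were 8 wk old and were fasted for 4 to 6 h before tissue was taken. The comparison asks how the mRNA of each enzyme of triglyceride assembly differs between livers with and without both receptors.

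Triglyceride is assembled by adding fatty acids to glycerol 3-phosphate in a fixed order. Glycerol-3-phosphate acyltransferases such as GPAM add the first chain, and the AGPAT enzymes add the second to give phosphatidate. Lipins remove the phosphate and leave diacylglycerol, to which DGAT enzymes add the last chain, while MOGAT enzymes reach diacylglycerol by acylating monoacylglycerol. Lipin 1 is also known as a coactivator of PPARα in the nucleus, and LXR is known to drive lipogenic genes in liver through Srebf1.

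Between 55772659 and 72842744 reads were counted on genes per liver. Values below are normalized counts, that is, reads divided by 1 size factor per library. The labels were checked first against the deleted genes. Nr1h3 stood at 5785 and 5322 in WT against 1712 and 1826 in LXRDKO, and Nr1h2 stood at 2987 and 3110 against 925 and 1003. The RNA of both was thus lower in each LXRDKO liver but still present. Marker genes of hepatocytes summed to 6517100 and 7408250 in WT and to 6850830 and 6163490 in LXRDKO, and the groups overlapped. Most of each sum was Alb, with 4940810 and 5959090 in WT and 5214020 and 4644570 in LXRDKO. Of the other markers, Apoa1 and Cyp2e1 overlapped and Ttr was slightly lower in both LXRDKO livers (log2 fold change −0.07). Hnf4a was higher in both (0.60, adjusted P = 0.224 with limma and 0.0115 with DESeq2). In whole liver, fewer cells of a type and less RNA per cell cannot be told apart.

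Gpam was the only gene of the set that passed the test, and it fell. Lpin1 was the gene with the largest difference, higher in both LXRDKO livers, but its adjusted P value with limma was just above the threshold. The other 8 genes had log2 fold changes between −0.26 and 0.12. With limma, 1 of 10 genes had an adjusted P value under 0.05, where 0.321% of the 15578 genes tested did. With DESeq2 on the recovered reads, Gpam and Lpin1 passed, 2 of 10, where 3.59% of 15797 genes did. LXRDKO and WT livers did not overlap for 4 of the 10 genes, Lpin1, Agpat1 and Dgat1 being higher and Gpam lower, close to the 44.7% of all genes tested. The median log2 fold change of the 10 genes was −0.02, against −0.0046 for all genes tested.

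**Figure D1:**
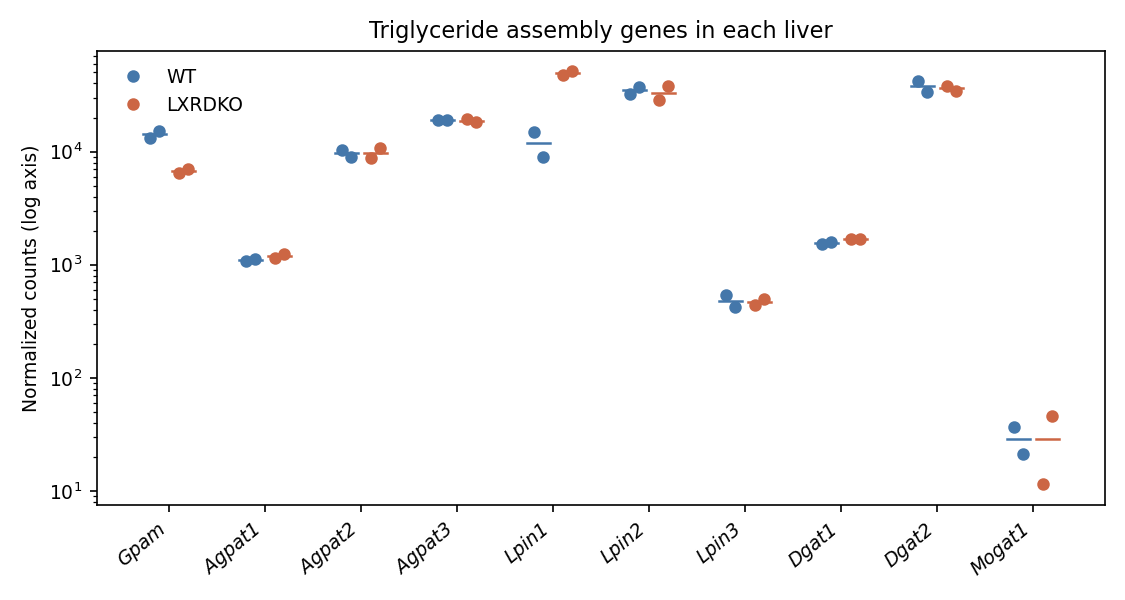
Normalized counts of the 10 genes in each liver, on a log axis, with WT in blue and LXRDKO in orange. Points are livers and bars are group means. The Gpam points of the LXRDKO livers (6476 and 7061) lie below those of WT, and the Lpin1 points (47130 and 51115) lie above, while the points of Mogat1 are the most scattered.

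Gpam (ENSMUSG00000024978, chromosome 19 from 55067268 to 55127238 on GRCm38) encodes the mitochondrial acyltransferase of the first step. WT livers held 13281 and 15190 normalized counts of it, and LXRDKO livers 6476 and 7061. Both LXRDKO values lay under the lower WT value, and the livers within a genotype were close to each other. The log2 fold change was −1.07 (standard error 0.11, 95% interval −1.34 to −0.80), so Gpam fell by 52.4% (adjusted P = 0.0417, limma). DESeq2 gave an adjusted P value of 4.72e-11 and edgeR gave 0.0491. Among the 793 tested genes with a mean at least as high as that of Gpam, it had the 10th largest fall. With limma the adjusted P value was 0.0102 without WT 1, 0.0252 without WT 2, 0.199 without LXRDKO 1 and 0.183 without LXRDKO 2, with log2 fold changes between −1.17 and −0.97. Calls over all genes moved in the same way, with 265 and 157 genes called without WT 1 or WT 2 but 2 and 4 without LXRDKO 1 or LXRDKO 2.

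The stretch of 250 bases before the upstream start site of Gpam is printed because Gpam and Lpin1 were the genes that stood apart. It lies at chr19:55127239-55127488 of GRCm38.p6 and is given 5′ to 3′ on the minus strand, from RefSeq. Capitals mark TCACCCCA, the core of a sterol regulatory element to which SREBP proteins can bind, and ATTGG, which is CCAAT on the other strand.
Gpam: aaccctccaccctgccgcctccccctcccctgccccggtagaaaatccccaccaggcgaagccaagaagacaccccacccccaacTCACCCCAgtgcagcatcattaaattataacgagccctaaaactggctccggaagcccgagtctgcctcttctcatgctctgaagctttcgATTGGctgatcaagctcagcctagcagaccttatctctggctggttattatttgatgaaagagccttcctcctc
TCACCCCA stands 165 to 158 bases before the start. On either strand it was found in 1.34% of 32851 mouse promoters of the same length, and CCAAT in 33.8%. The nuclear receptor half-site AGGTCA was absent from this window but occurred 196 to 191 bases before a second, downstream start of Gpam. AGGTCA was found in 14.0% of promoters. Among the other genes of the set, AGGTCA also stood before a start of Lpin1 and of Agpat1, and CCAAT before a start of Agpat1 and of Lpin2.

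The 3 AGPAT genes make the enzymes of the second step, which turn lysophosphatidate into phosphatidate. Agpat1 (chromosome 17 from 34604262 to 34613449) was counted at 1069 and 1124 in WT and at 1156 and 1232 in LXRDKO. Agpat2 (chromosome 2 from 26593057 to 26604417), whose loss in people and mice causes lipodystrophy, had 10296 and 8939 in WT and 8759 and 10676 in LXRDKO. Agpat3 (chromosome 10 from 78269178 to 78352489) had 19157 and 18942 in WT and 19382 and 18245 in LXRDKO. The groups overlapped for Agpat2 and Agpat3, while both Agpat1 values of LXRDKO were above those of WT by a small margin. The log2 fold changes were 0.12 for Agpat1 (95% interval −0.14 to 0.38, adjusted P = 0.686), 0.01 for Agpat2 (−0.32 to 0.34, adjusted P = 0.983) and −0.02 for Agpat3 (−0.25 to 0.22, adjusted P = 0.958, all limma). The intervals thus leave room for no more than 0.38 in either direction for any of them. Exons of Agpat1 share 3.37% of their bases with Egfl8 and those of Agpat2 share 3.00% with Egfl7, each on the opposite strand, and whether reads were counted by strand is not given in the sources used here.

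Of the lipin genes, Lpin1 stood apart from Lpin2 and Lpin3. Lpin1 (ENSMUSG00000020593, chromosome 12 from 16535669 to 16610966) was at 15010 and 8975 normalized counts in WT, but at 47130 and 51115 in LXRDKO. Even the lower LXRDKO value was above the higher WT value by a wide margin, and the WT livers differed more from each other than the LXRDKO livers did. Within WT the livers differed by 0.74 on the log2 scale and within LXRDKO by 0.12, where the median gene differed by 0.18 and 0.17. The log2 fold change of Lpin1 was 2.08 (standard error 0.24, 95% interval 1.48 to 2.68), a 4.23-fold ratio of geometric means.

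By limma the adjusted P value of Lpin1 was 0.0545 (0.000189 before adjustment), which misses the threshold. On the recovered reads edgeR gave 0.0641 and DESeq2, the test that the study used, gave 9.69e-16, so the call depends on the test. Lpin1 had the largest rise in log2 terms among the 246 tested genes with a mean at least as high, and the 79th largest of all 15578. Left out in turn, WT 2 gave the smallest log2 fold change (1.71) and WT 1 the largest (2.45), with adjusted P values of 0.00654 and 0.00131 (limma, the lone liver being assumed to vary like the other group). Without LXRDKO 1 or LXRDKO 2 the log2 fold change was 2.14 or 2.02 and Lpin1 did not pass (adjusted P = 0.212 and 0.250, limma).

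The 250 bases before the Lpin1 start site lie at chr12:16610967-16611216 of GRCm38.p6 and are shown 5′ to 3′ on the minus strand, from RefSeq. Capitals mark TGTTCT, a half-site of the glucocorticoid receptor, and AGGTCA, the half-site shared by many nuclear receptors.
Lpin1: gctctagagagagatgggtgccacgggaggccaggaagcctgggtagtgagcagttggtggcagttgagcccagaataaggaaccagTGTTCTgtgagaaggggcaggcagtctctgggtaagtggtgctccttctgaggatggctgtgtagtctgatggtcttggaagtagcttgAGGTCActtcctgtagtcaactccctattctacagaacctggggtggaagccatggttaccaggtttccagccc
TGTTCT stands 163 to 158 bases before the start and AGGTCA 74 to 69 bases before it. TGTTCT was found on either strand in 16.1% of all promoters. It also stood before a start of Lpin2 and of Lpin3, and AGGTCA before a start of Agpat1, genes with log2 fold changes near 0. Whether any of these sites bears on expression was not tested. A direct repeat of AGGTCA with 4 bases between the copies, the arrangement to which LXR binds with RXR, was found in 0.0152% of promoters and in none of the 13 searched for these genes. RefSeq gave promoters for 8 of the 10 genes.

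Lpin2 and Lpin3 encode the other phosphatidate phosphatases of the family. Lpin2 (chromosome 17 from 71182560 to 71249817) was counted at 32018 and 37498 in WT and at 28563 and 37969 in LXRDKO. Lpin3 (chromosome 2 from 160880670 to 160906002) had 543 and 419 in WT and 442 and 494 in LXRDKO. In both genes the groups overlapped. The log2 fold change was −0.07 for Lpin2 (95% interval −0.50 to 0.35, adjusted P = 0.907, limma) and −0.03 for Lpin3 (−0.46 to 0.41, adjusted P = 0.965, limma). Neither interval reaches that of Lpin1.

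The last step has a pair of enzymes that are unrelated in sequence. Dgat1 (chromosome 15 from 76502015 to 76511953) was counted at 1524 and 1589 in WT and at 1670 and 1678 in LXRDKO. Dgat2 (chromosome 7 from 99153658 to 99182719), tied in liver to newly made fatty acids, had 42257 and 33509 in WT and 38280 and 34565 in LXRDKO. The groups overlapped for Dgat2, and for Dgat1 both LXRDKO values were slightly above WT. Their log2 fold changes were 0.11 for Dgat1 (95% interval −0.13 to 0.34, adjusted P = 0.700, limma) and −0.05 for Dgat2 (−0.42 to 0.32, adjusted P = 0.932, limma).

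Mogat1, on chromosome 1 from 78510991 to 78538173, encodes a monoacylglycerol acyltransferase and was near the bottom of the range that could be tested. WT livers held 36.5 and 21.2 normalized counts, LXRDKO livers 11.4 and 46.1, from 12 to 43 reads. The lowest and the highest value were both from LXRDKO livers. The log2 fold change of −0.26 had a 95% interval from −2.0 to 1.48 (adjusted P = 0.921, limma), so a difference as large as that of Gpam could not have been told from none. Of its exon bases, 12.8% are shared with BC035947 on the opposite strand.

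**Figure D2:**
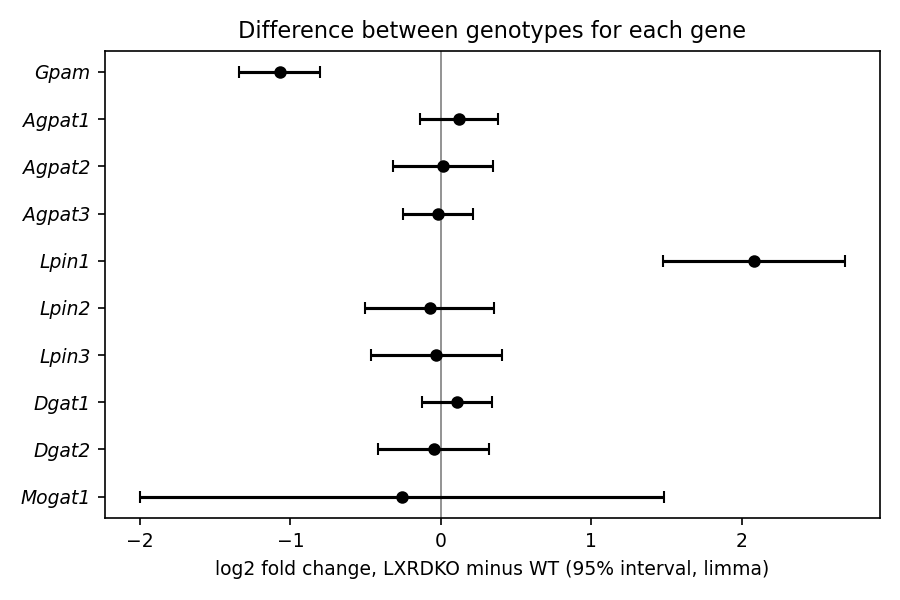
Log2 fold change of each gene, LXRDKO minus WT, on the horizontal axis, with the 95% interval from limma as bars. The intervals of Gpam (−1.34 to −0.80) and Lpin1 (1.48 to 2.68) lie away from 0, the other 8 cross it, and that of Mogat1 is the widest.

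Set against all genes tested, Gpam and Lpin1 were abundant transcripts with differences that few genes of similar mean count over the 4 livers showed. For Lpin1 that mean (30558) is itself raised by the LXRDKO livers, the WT mean being 11993. Ranked by log2 fold change, Gpam had the 298th largest fall of 15578 genes. Larger falls and rises were mostly in genes with fewer counts.

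**Figure D3:**
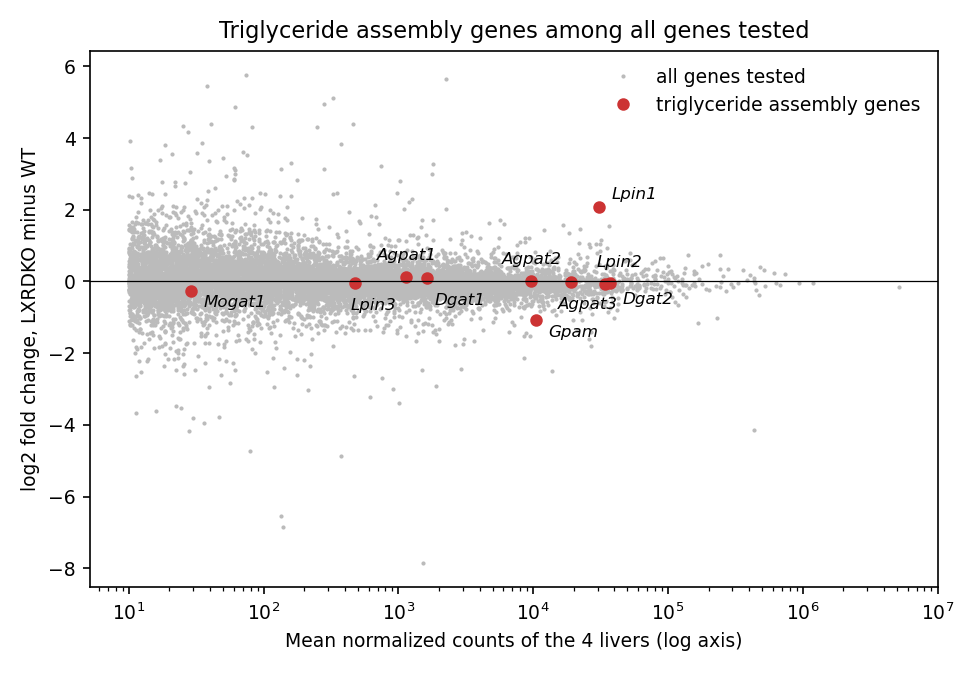
Each point is a gene tested, placed by its mean normalized count over the 4 livers (horizontal, log axis) and its log2 fold change, LXRDKO minus WT (vertical). The 10 triglyceride assembly genes are in red, with Lpin1 at 2.08 above and Gpam at −1.07 below the dense band of genes of similar count, in which the other 8 lie.

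To compare levels between genes, normalized counts were divided by the length of each gene's exons in kb. In WT livers Dgat2 was highest (mean 12288 normalized counts per kb), followed by Agpat2 (4515), Lpin2 (2841), Agpat3 (2445), Gpam (2136), Lpin1 (1241), Dgat1 (509), Agpat1 (365), Lpin3 (130) and Mogat1 (18.5). No neighbours in that order overlapped between the 2 WT livers. In LXRDKO livers Dgat2 was again highest (11814), but Lpin1 stood next at 5083 and Gpam came after Agpat3 at 1016. There the ranges of Lpin1 and Agpat2 (4562) overlapped, as did those of Lpin2 (2719) and Agpat3 (2415). Lpin1 thus stood at rank 6 in WT and rank 2 in LXRDKO, and Gpam at rank 5 and rank 6.

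At each step the share of an isoform was its normalized counts per kb over the sum of a fixed group of isoforms. The lipin, AGPAT and DGAT groups held the genes of the set alone, so that Agpat4, Agpat5 and Lclat1 were not counted, while the GPAT group also held genes outside the set. Of lipin mRNA, Lpin1 made up 36.0% and 22.6% in WT but 66.5% and 62.0% in LXRDKO. Lpin2, with 60.6% and 74.6% in WT, held 31.8% and 36.4% in LXRDKO, so the more abundant lipin mRNA was Lpin2 in both WT livers and Lpin1 in both LXRDKO livers. The difference in the Lpin1 share was 35.0 percentage points, from 29.3% ± 9.4 to 64.3% ± 3.2 (SD, n = 2 each, two-sided exact permutation test p = 0.333, adjusted over 4 shares 0.667). With 2 livers against 2 the smallest P value such a test can give is 0.333. Summed over the family, lipin mRNA stood at 4317 and 4107 (normalized counts per kb) in WT against 7331 and 8526 in LXRDKO, which is 1.88 times the WT mean.

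Gpam made up 44.1% and 42.7% of GPAT mRNA in WT and 33.9% and 28.6% in LXRDKO, where GPAT mRNA is the sum of Gpam, Gpat2, Gpat3 and Gpat4. The share was 12.1 percentage points lower in LXRDKO (43.4% ± 1.0 in WT and 31.3% ± 3.8 in LXRDKO, SD, n = 2 each, exact permutation test p = 0.333, adjusted 0.667). Gpat4, an acyltransferase of the endoplasmic reticulum, held the larger share in every liver, with 50.8% and 49.4% in WT and 57.5% and 56.9% in LXRDKO. Summed GPAT mRNA was 0.666 times the WT mean. The Agpat2 share of the 3 AGPAT genes was 63.2% and 59.9% in WT and 58.9% and 64.6% in LXRDKO, and the Dgat2 share was 96.5% and 95.4% in WT and 95.8% and 95.3% in LXRDKO. Both overlapped between the genotypes. The summed AGPAT and DGAT mRNA were 1.01 and 0.966 times the WT mean.

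**Figure D4:**
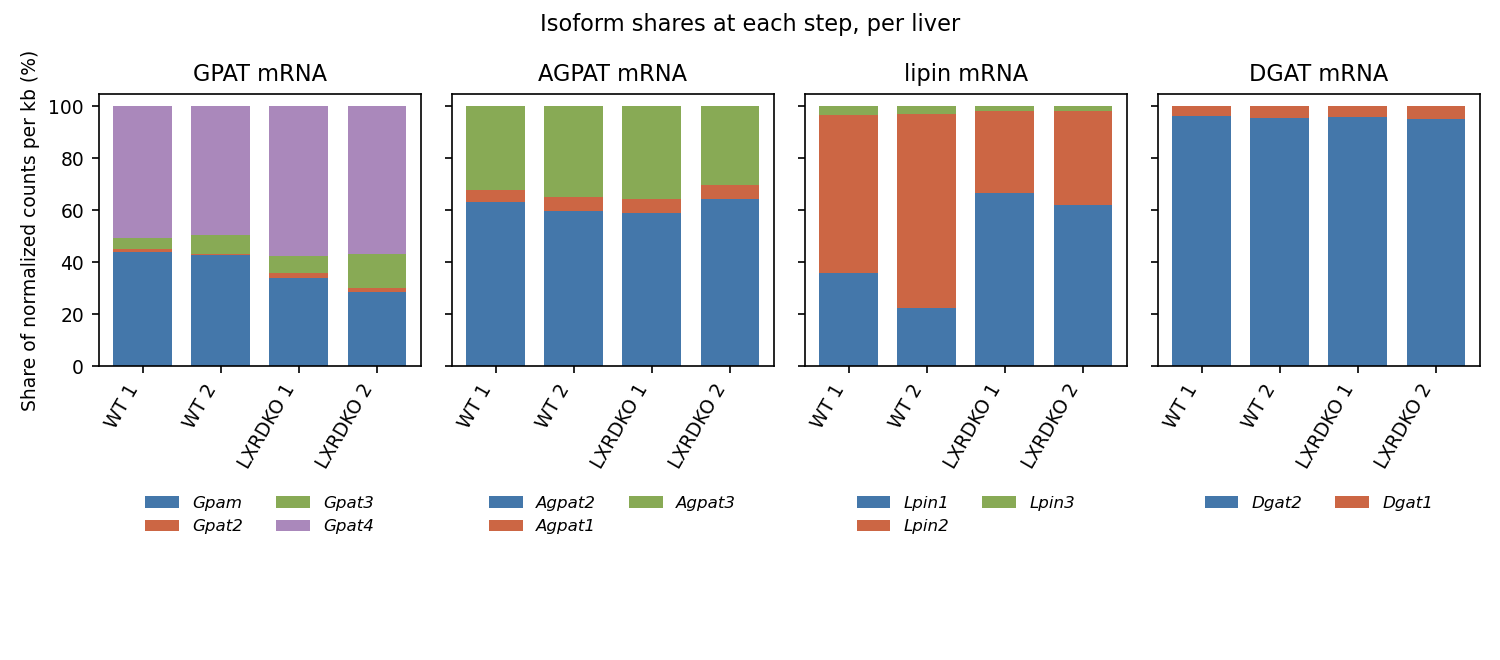
Stacked bars give, for each liver, the share (%) of each isoform in the summed mRNA of the isoforms drawn, from normalized counts per kb of exon. In the lipin panel the Lpin1 part is 36.0% and 22.6% in WT and 66.5% and 62.0% in LXRDKO, and in the GPAT panel the Gpam part is smaller in both LXRDKO livers, while the AGPAT and DGAT panels look alike in all 4.

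Genes around the pathway were taken from 9 lists, and of all of them Srebf1, Nr1h3 and Nr1h2 passed the limma test. All 3 are regulators of lipogenic genes and fell, and the latter pair are the deleted receptors themselves. Srebf1, which encodes the SREBP-1 factor of lipogenic genes, stood at 22206 and 24071 in WT and at 3118 and 5287 in LXRDKO. The log2 fold change of −2.51 had a standard error of 0.24 (adjusted P = 0.0407, limma). Insig1, which holds SREBP in the endoplasmic reticulum, and Scap, which escorts it to the Golgi, had log2 fold changes of −1.07 and −0.38 and did not pass (adjusted P = 0.318 and 0.235, limma). Of the 10 regulators 9 were lower and 1 higher, with a median of −0.36, where 7929 of the 15578 genes tested were lower. The 9 include the deleted Nr1h3 and Nr1h2, whose fall the genotype fixes, and Srebf2 (−0.02) and Mlxipl (−0.04), which were near 0.

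Of the 7 other acyltransferase isoforms none passed with limma or DESeq2, and 2 had an unadjusted P value under 0.05, as did 13.3% of all genes tested. Gpat4 stood at 15328 and 17637 in WT and at 11004 and 14079 in LXRDKO, a log2 fold change of −0.40 (95% interval −0.77 to −0.03, adjusted P = 0.344, limma). Gpat2, a minor isoform in liver, was at 0.68 and Agpat5 at 0.32, each above WT in both LXRDKO livers. In the supply of glycerol 3-phosphate all 6 genes tested were lower in mean, with a median of −0.33, where 7929 of all 15578 were lower. None passed with either tool and 2 had an unadjusted P value under 0.05 (13.3% of all genes). Gpd1, the cytosolic enzyme that makes glycerol 3-phosphate, was at −0.35, Gpd2, its mitochondrial partner, at −0.74, and Gpd1l at −0.07.

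Among 5 genes known to act with lipins or on them none passed with limma. Ppara, the nuclear receptor that lipin 1 can coactivate, stood at 15122 and 12695 in WT and at 8264 and 10337 in LXRDKO. Its log2 fold change of −0.58 was not called by limma (adjusted P = 0.214) and was called by DESeq2 (adjusted P = 0.0282). Ppargc1a, which encodes a coactivator that can induce Lpin1, was at 0.39 (adjusted P = 0.356, limma), and Cnep1r1, which encodes a subunit of the phosphatase that dephosphorylates lipins, was at 0.12 (adjusted P = 0.749, limma). Both lay above WT in each LXRDKO liver.

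Phosphatidate and diacylglycerol can also leave for phospholipids or be interconverted. Of 14 genes of these routes 12 were lower in mean, where 7929 of all 15578 were lower. None passed with limma or DESeq2 and 3 had an unadjusted P value under 0.05 (13.3% of all genes). The largest differences without overlap were those of Dgkh, a diacylglycerol kinase (−0.72), Cds1, which makes CDP-diacylglycerol (−0.61), and Plpp3, a phosphatase of lipid phosphates (−0.40). Cds1 rested on 9 to 27 reads, and its LXRDKO 1 value (21.8) lay barely under those of WT (22.8 and 22.9). Of 7 genes of triglyceride hydrolysis 5 were lower in mean, a count that takes no account of whether a gene promotes or restrains hydrolysis. The 2 higher were Pnpla2 (0.35) and Abhd5 (0.12), both above WT in each LXRDKO liver. G0s2 (−1.53) and Hilpda (−0.22) were lower in mean but overlapped between the groups. Mgll, the monoacylglycerol lipase, was at −0.56 and passed with DESeq2 (adjusted P = 0.0157) but not limma (adjusted P = 0.171). Pnpla3 was at −2.03 with a 95% interval from −4.22 to 0.16, and Lipe, the hormone-sensitive lipase, at −0.51. Pnpla3 rested on few reads, 10 and 89 in WT and 6 and 7 in LXRDKO, so its difference came mostly from WT 2. Of 5 genes that load triglyceride into VLDL none passed with limma and 1 passed with DESeq2, where 3.59% of all genes did. It was Mttp, which transfers lipid to apolipoprotein B, at −0.48 (adjusted P = 0.199 with limma and 0.0231 with DESeq2). Sar1b, at −0.34, was also lower without overlap. Apob (−0.05), Tm6sf2 (−0.17) and P4hb (0.07) overlapped between the groups.

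Fasting and the time of day are known to move hepatic Lpin1. No gene of the 10 fasting-induced genes passed with limma or DESeq2 (2 had an unadjusted P value under 0.05, against 13.3% of all genes), 4 were higher and 6 lower, and the median was −0.0087. Pck1, the gluconeogenic enzyme, was at 0.35, Irs2, an insulin receptor substrate, at 0.31 and Ppargc1a at 0.39, each higher in both LXRDKO livers. Livers of the same genotype differed in these 10 genes by a median log2 gap of 0.24 in WT and 0.48 in LXRDKO. For all genes tested it was 0.18 and 0.17. The gap was 3.35 and 2.54 for Fgf21 but 0.09 and 0.01 for Pck1. Where gaps are wide, a difference between the genotypes could have been missed. Of 13 clock genes tested none passed with either tool, while 5 had an unadjusted P value under 0.05, against the same 13.3%. Arntl, which encodes the activator BMAL1, was at 0.78, and its outputs Nr1d1 and Dbp were at −0.64 and −0.58, each without overlap. Ciart (0.43), Per1 (0.23) and Cry1 (0.21) were higher, likewise without overlap. Of the 13 genes 4 lay above WT, 5 lay below and 4 overlapped, where 44.7% of all genes tested did not overlap. The hour of sampling is not given in the sources used here, and the part of either process in the Lpin1 values was not tested.

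**Figure D5:**
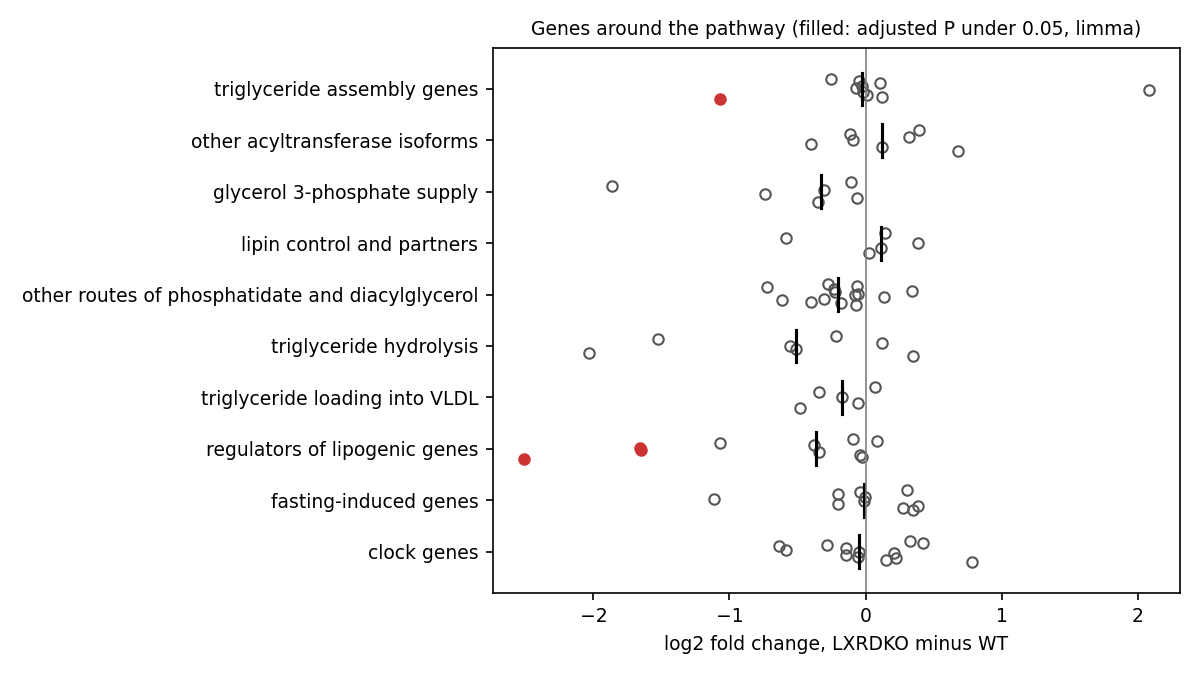
Each circle is a gene tested, placed by its log2 fold change (LXRDKO minus WT) and its list. Filled circles passed the limma test and the vertical bar is the median of the list. Filled circles are Gpam among the triglyceride assembly genes and Srebf1, Nr1h3 and Nr1h2 among the regulators, and Lpin1 is the open circle at 2.08.

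Lpin1 is also abundant in fat and muscle. Of the fat cell markers, Adipoq, Retn and Plin1 had 0 to 2 reads in each liver, and Cfd overlapped between the groups. The muscle markers Acta1 and Myh4 had 0 to 3 reads. Summed markers of several other liver cells did not overlap between the genotypes. The 5 Kupffer cell markers summed to 7392 and 8279 in WT and to 832 and 473 normalized counts in LXRDKO, all 5 lower and 3 called by limma. The 4 lymphocyte markers summed to 143 and 195 in WT and 83.5 and 52.5 in LXRDKO, the 4 cholangiocyte markers to 644 and 675 in WT and 895 and 1109 in LXRDKO, and the 4 stellate cell markers to 10256 and 10270 in WT and 14352 and 16222 in LXRDKO. No marker of these cell types passed with limma, while DESeq2 called Epcam, Dcn and Reln (adjusted P = 0.0112, 0.00357 and 0.0320). Sox9 gave most of the cholangiocyte counts, and Dcn and Reln most of the stellate cell counts. The stellate cell marker Lrat overlapped between the groups. Among single genes tested, 44.7% did not overlap. Of 4 endothelial markers Kdr fell (log2 fold change −1.17, adjusted P = 0.0498, limma). Stab2 (−0.37), Pecam1 (−0.24) and Lyve1 (0.23) did not pass, and Stab2 and Lyve1 overlapped between the groups. The sum of the 4, to which Stab2 and Kdr gave the most counts, was 7310 and 6814 in WT and 5685 and 4460 in LXRDKO. The 3 red blood cell markers overlapped. The part of these cells in the values of Gpam and Lpin1 was not tested.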

How the data were processed

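RNA-Seq of 4 livers was analysed here, while chromatin accessibility was not used here. The authors captured polyadenylated RNA with a stranded kit, aligned the reads with STAR 2.6.0c to mm10 per the labels and normalized with DESeq2. They also tested with DESeq2 at an adjusted P value under 0.05. On the recovered reads DESeq2 called 246 genes up and 321 down here, the numbers that the study reports. The counting tool and annotation are not given in the sources used here. The deposited values are a signal, namely counts divided by 1 size factor per library. All of them (100%) are whole multiples of 1 read within 0.01 reads, so the reads were recovered. The 4 columns map to 4 mice.

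After a pseudocount of 1 was added, log2 values were compared by limma 3.58.1 under R 4.3.3 (empirical Bayes, variance trend) across 15578 genes whose mean reached 10, with Benjamini-Hochberg adjustment over all of them and a threshold of 0.05. Fold changes on this scale understate those of low genes. Limma P values set the difference between genotypes against the spread between 2 mice per genotype, which is moderated toward that of other genes of similar level. Exon lengths and positions came from GENCODE M21 on GRCm38, matched by Ensembl identifier for 24987 genes. Isoform shares were compared by exact permutation tests. Promoters are the 250 bases before each RefSeq start. Replicate numbers do not pair the mice (correlation of deviations 0.0031).

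Also tried were a pseudocount of 0.5 or 8, testing all genes or those with a mean from 50 up, upper-quartile and column-total scaling, robust moderation, limma with no trend, a replicate block, DESeq2 1.42.0 and edgeR 4.0.16 on recovered reads, thresholds of 0.01 and 0.10, and each liver left out. The limma, DESeq2 and edgeR fits were tested on simulated counts, and the other steps were not. The genes and lists were chosen with earlier results of these data known. The genes named are the 10 of the set and, of each pathway list, those called by limma and up to 3 with the largest log2 fold change, in either direction, among those without overlap between groups. Further genes of the regulator, hydrolysis, VLDL, fasting and clock lists are named to show the spread within those lists.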

Additional observations from a re-analysis of the deposited data

How the results depend on the processing

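Of the 10 genes, the number with an adjusted P value under 0.05 was 1 with limma and stayed 1 with both pseudocounts, no filter, either scaling, robust moderation and edgeR, but the gene was Lpin1 and not Gpam with column-total scaling (adjusted P = 0.0491 and 0.0518). It was 0 with a mean of at least 50 (Gpam at 0.0540) and 0 without the trend (0.219), where 1 gene of all was called. It was 2, Gpam and Lpin1, with DESeq2, with a threshold of 0.10 and with the replicate block (Lpin1 at 0.0374), and 0 with a threshold of 0.01. With a liver left out it ranged from 0 to 2, while calls over all genes ranged from 2 to 265. The cause of these shifts was not tested. The sign of Gpam and Lpin1 held under every alternative tried.

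The number of pathway genes called, 3 with limma, was 0 without the trend, 6 with DESeq2, 0 with a threshold of 0.01 and from 0 to 5 with a liver left out. The median log2 fold change of the 10 genes ranged from −0.059 to 0.12 with a liver left out. Genes with a log2 fold change near 0 changed sign. With column-total scaling, which moves the median of all genes to 0.05, Agpat3 was at 0.036, Lpin3 at 0.025 and Dgat2 at 0.0056, and with edgeR Mogat1 was at 0.0039. With a liver left out, the log2 fold change ranged from −0.13 to 0.15 for Agpat2, −0.062 to 0.025 for Agpat3, −0.28 to 0.13 for Lpin2, −0.22 to 0.16 for Lpin3, −0.22 to 0.12 for Dgat2 and −1.22 to 0.71 for Mogat1. The difference in share ranged from −2.70 to 2.99 percentage points for Agpat2 and −0.93 to 0.12 for Dgat2. The replicate block changed no other call among the 10 genes. At 12 reads the counting error of Mogat1 is 28.9%, which limits its comparison. Intervals rest on the spread between these livers, moderated toward that of other genes of similar level.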
